A study of Mus musculus with 11 samples.

Results

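The regions described here are 986 tiles of 2 kb in which the signal of 5-hydroxymethylcytosine (5hmC) was high in DNMT_WT cells and low in TET_WT cells at day 2 of conversion to epiblast-like cells (EpiLC). They were chosen among 1165929 autosomal tiles in scope, of 1362779 deposited, leaving out chromosome 14 and chromosome 4 from 143 to 149 Mb. A tile was taken when each of the 3 DNMT_WT day 2 libraries had a log2 RPKM of at least 0 and their mean lay at least 2 above the mean of the 3 TET_WT day 2 libraries. The tiles were thus selected on their day 2 values in both lines, which are given as a description with no test. The TET_WT libraries of day 0 and day 1 played no part in the choice.

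The study captured DNA fragments that carry 5hmC with a kit (HMCP-seq) and sequenced them. Both lines are wild-type mouse embryonic stem (ES) cell lines: DNMT_WT is the parent of a line without Dnmt1, Dnmt3a and Dnmt3b, and TET_WT the parent of a line without Tet1, Tet2 and Tet3, and neither carries a knockout itself. DNMT_WT was sampled as EpiLC at day 2 (3 libraries), and TET_WT as ES cells in 2i/Lif at day 0 (3 libraries) and as EpiLC at day 1 (2 libraries, replicates 2 and 3) and day 2 (3 libraries). The labels name no strain, passage or sex of either line and do not say whether replicates were separate cultures, so p-values measure only the spread between these libraries. Line identity and anything handled together with a line cannot be told apart, and DNMT_WT at day 0 or day 1 was not analysed here. The libraries measure a DNA mark, so RNA markers of ES cells, EpiLC or feeder cells could not be checked, and more cells with the mark cannot be told apart from more mark per cell.

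TET enzymes make 5hmC by oxidising 5-methylcytosine, which DNA methyltransferases place mostly at CpG, a cytosine followed by a guanine. The mark is typically found in gene bodies, at enhancers and beside CpG islands. The islands are CpG-dense stretches at many promoters that are usually kept free of methylation, among them the promoters of silent developmental genes held by Polycomb proteins. During the move from naive ES cells to EpiLC, DNA methylation is laid down across the genome, and TET activity turns part of it into 5hmC.

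Of the 986 tiles, 199 held an annotated gene start, and 248 RefSeq promoters (GRCm38.p6, 250 bases before to 50 after a start) began in them. Upstream parts of 8 of these promoters are shown, chosen after their values were seen, because they span the range found: the largest line differences, CpG-dense promoters of developmental regulators, and CpG-poor promoters. Each is written 5′ to 3′ on the strand of its gene, with every CpG in capitals.
Tob2: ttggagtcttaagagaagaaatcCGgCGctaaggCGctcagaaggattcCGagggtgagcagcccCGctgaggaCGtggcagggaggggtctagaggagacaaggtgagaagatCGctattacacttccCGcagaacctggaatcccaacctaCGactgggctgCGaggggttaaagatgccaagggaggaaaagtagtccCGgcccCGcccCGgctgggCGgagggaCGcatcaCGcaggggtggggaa
Tfap2a: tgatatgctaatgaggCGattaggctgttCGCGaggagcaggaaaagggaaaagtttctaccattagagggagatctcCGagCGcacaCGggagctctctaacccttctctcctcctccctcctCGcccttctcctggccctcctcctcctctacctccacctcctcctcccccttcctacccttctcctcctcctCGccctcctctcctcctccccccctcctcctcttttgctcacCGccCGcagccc
Hoxd10: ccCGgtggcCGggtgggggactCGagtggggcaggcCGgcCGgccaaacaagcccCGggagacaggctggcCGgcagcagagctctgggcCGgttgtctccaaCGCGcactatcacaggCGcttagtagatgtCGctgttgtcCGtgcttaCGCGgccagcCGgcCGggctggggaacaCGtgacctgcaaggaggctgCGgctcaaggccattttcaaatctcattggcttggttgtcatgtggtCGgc
Hoxd13: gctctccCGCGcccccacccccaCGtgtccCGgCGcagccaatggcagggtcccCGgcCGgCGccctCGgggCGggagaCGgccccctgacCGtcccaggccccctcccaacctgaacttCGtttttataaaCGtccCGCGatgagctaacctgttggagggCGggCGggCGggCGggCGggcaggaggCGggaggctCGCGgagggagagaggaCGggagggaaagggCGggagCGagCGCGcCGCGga
Cbx8: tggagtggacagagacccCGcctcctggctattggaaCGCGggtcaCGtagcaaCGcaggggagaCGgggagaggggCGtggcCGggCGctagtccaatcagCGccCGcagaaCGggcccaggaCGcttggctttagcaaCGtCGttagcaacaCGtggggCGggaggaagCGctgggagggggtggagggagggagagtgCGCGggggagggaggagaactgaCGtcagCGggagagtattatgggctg
Klf4: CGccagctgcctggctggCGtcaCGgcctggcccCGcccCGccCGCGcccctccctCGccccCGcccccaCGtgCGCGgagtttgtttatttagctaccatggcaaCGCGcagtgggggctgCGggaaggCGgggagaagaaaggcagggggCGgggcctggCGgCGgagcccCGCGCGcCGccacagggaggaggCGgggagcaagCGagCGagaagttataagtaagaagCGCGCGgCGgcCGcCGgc
Catsperg1: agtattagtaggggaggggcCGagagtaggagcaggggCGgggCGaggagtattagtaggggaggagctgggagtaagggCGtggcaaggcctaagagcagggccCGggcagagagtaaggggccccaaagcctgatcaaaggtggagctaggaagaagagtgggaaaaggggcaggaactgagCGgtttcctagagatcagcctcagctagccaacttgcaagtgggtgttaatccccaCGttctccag
Gramd1a: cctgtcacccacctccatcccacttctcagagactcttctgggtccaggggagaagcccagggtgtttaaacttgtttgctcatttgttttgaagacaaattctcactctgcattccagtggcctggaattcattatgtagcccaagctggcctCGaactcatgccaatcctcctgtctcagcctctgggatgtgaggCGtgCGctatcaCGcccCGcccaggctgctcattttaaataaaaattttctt

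The Tob2 stretch (chr15:81858327-81858576, minus strand) holds 16 CpG and lies before a member of the antiproliferative BTG/TOB family. The Tfap2a stretch (chr13:40733796-40734045, minus strand) holds 10 CpG before a start of AP-2 alpha, a transcription factor of neural crest and surface ectoderm. The stretches of Hoxd10 (chr2:74691641-74691890, plus strand) with 20 CpG and Hoxd13 (chr2:74667975-74668224, plus strand) with 31 CpG belong to homeobox factors that pattern the body axis and limbs. Cbx8 (chr11:119040914-119041163, minus strand), with 22 CpG, encodes a Polycomb chromobox protein. Klf4 (chr4:55532476-55532725, minus strand), with 32 CpG, encodes a factor of naive pluripotency. The stretches of Catsperg1 (chr7:29210926-29211175, minus strand), a subunit of the sperm calcium channel, and Gramd1a (chr7:31151172-31151421, minus strand), a sterol transporter, hold 7 and 5 CpG.

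The tiles with these starts had quite different levels. The Tob2 tile averaged 4.04 log2 RPKM in DNMT_WT and -3.28 in TET_WT at day 2, and the Tfap2a tile 3.21 in DNMT_WT and -4.09 in TET_WT. The Hoxd10 start tile averaged 2.23 and -0.32, the Hoxd13 tile 0.80 and -1.94, the Cbx8 tile 0.77 and -1.54, and the Klf4 tile 0.93 and -1.59, each in DNMT_WT and then in TET_WT at day 2. The CpG-poor Catsperg1 and Gramd1a tiles averaged 3.02 and 3.0 in DNMT_WT, against -2.65 and -0.20 in TET_WT.

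Across all 986 tiles, the median level was 1.18, 1.17 and 1.16 log2 RPKM in DNMT_WT replicates 1, 2 and 3. In TET_WT it was -1.67, -1.68 and -1.71 at day 0, -1.66 and -1.76 at day 1, and -1.27, -1.31 and -1.39 at day 2. The libraries of a group lay close together, and none of the 8 TET_WT libraries came near a DNMT_WT library. Counted as reads, the tiles took 2574, 2544 and 2517 of every 1000000 reads in DNMT_WT, against 373, 410 and 360 in TET_WT at day 0, 373 and 358 at day 1, and 435, 426 and 443 at day 2. The line difference of the tiles had a median of 2.47 (quartiles 2.19 and 3.10) and a highest value of 7.32.

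**Figure D1:**
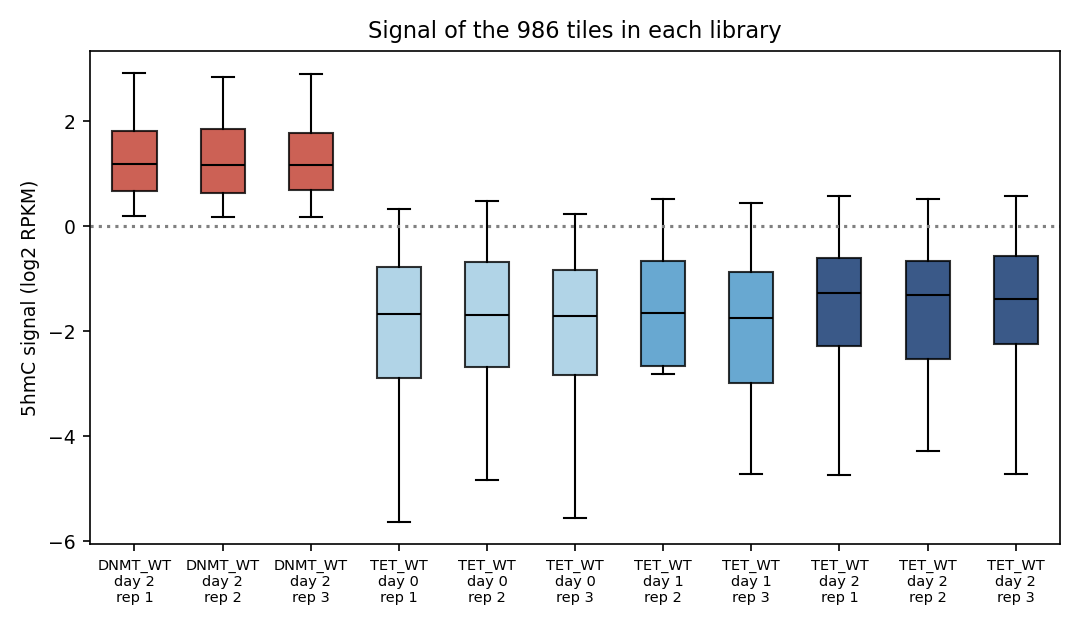
Signal (log2 RPKM, vertical axis) of the 986 tiles in each of the 11 libraries, with boxes from the lower to the upper quartile, a line at the median and whiskers at the 5th and 95th percentiles. The DNMT_WT medians lie between 1.16 and 1.18 by the rule, while the TET_WT medians of days 0 and 1, which the rule did not use, lie between -1.76 and -1.66.

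Reading depth sets what a single tile can show. The libraries held between 7342015 reads (TET_WT day 1 replicate 2) and 51604034 reads (day 0 replicate 1). A log2 RPKM of 0 stood for 35.6, 14.2 and 25.5 reads in DNMT_WT replicates 1, 2 and 3, and for 6.32 reads in the shallow day 1 library. Tiles without reads carry the value of 0.9 reads, which is -2.81 in that day 1 library and -5.63 in day 0 replicate 1, so values of empty tiles differ by depth alone. Day 0 replicate 2 stood apart, with a median of -2.10 over autosomal tiles, against -1.47 and -1.41 in replicates 1 and 3.

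The day 0 libraries showed the tiles low in TET_WT before conversion began. The mean of day 0 reached 0 or more in 74 tiles (7.51%), and the mean of day 1 in 87. Among the 191861 tiles high in both lines at day 2 (each DNMT_WT library at least 0, line means within 0.5), 89.4% reached 0 at day 0, and 26.3% of all tiles in scope did. The day 0 median was -1.84 in the 986 tiles, against 1.23 in tiles high in both lines and -1.83 over all tiles in scope. Left without day 0 replicate 2, the median of the 986 tiles was -1.81 and the share at or above 0 was 7.30%. With each library centred on its median, which raises all values, the share at or above 0 was 44.6% in the 986 tiles, 99.2% in tiles high in both lines and 47.9% over all tiles in scope.

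Day 0 of TET_WT lay below day 2 of DNMT_WT nearly throughout. Every DNMT_WT library exceeded every TET_WT day 0 library in 974 of the 986 tiles (98.8%), as it did in 33.7% of tiles high in both lines and 12.3% of all tiles. The gap to the day 0 mean was at least 2 in 829 tiles (84.1%) and under 1 in 23. These comparisons share the DNMT_WT libraries with the rule, so they are no separate test of the DNMT_WT level.

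**Figure D2:**
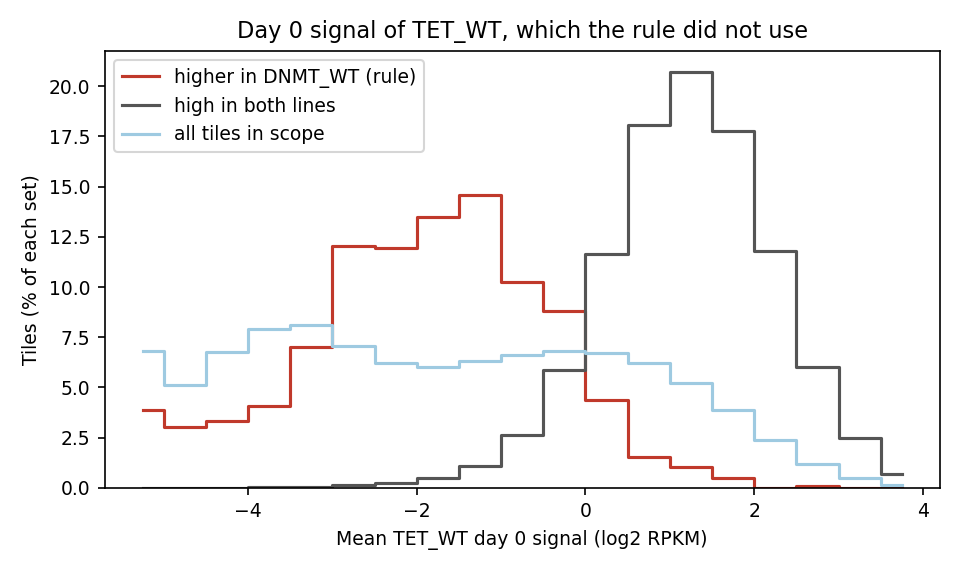
Mean TET_WT day 0 signal (log2 RPKM, horizontal axis, bins of 0.5) as a percentage of the tiles in each set (vertical axis). The red line of the 986 tiles centres near its median of -1.84, and the grey line of tiles high in both lines near 1.23.

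The mirror image held for tiles of the opposite kind. A rule with the lines exchanged took 1079 tiles, with a median of -1.88 in DNMT_WT at day 2. In TET_WT their medians were 0.93 at day 0, 0.93 at day 1 and 0.83 at day 2. In both sets, then, the median level of TET_WT at day 0 lay nearer to TET_WT at day 2 than to DNMT_WT at day 2. For the 986 tiles the median of day 2 minus day 0 within TET_WT was 0.37, beside a line difference of 2.47. Day 2 of TET_WT stood in the rule, which favoured low values there.

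Within TET_WT, the day 2 mean exceeded the day 0 mean by at least 1 in 238 of the 986 tiles (24.1%) and by at least 2 in 76. It was lower than the day 0 mean by at least 1 in 96 (9.74%) and by at least 2 in 11. Over all tiles in scope, 10.1% were higher and 10.1% lower at day 2 by at least 1. The highest day 0 level belonged to a tile in Xpot, which encodes an exporter of tRNA from the nucleus (chr10:121590001-121592000). It had 3.58, 2.99 and 3.60 log2 RPKM in DNMT_WT at day 2. In TET_WT it had 2.72, 2.95 and 2.49 at day 0, 1.73 and 1.56 at day 1, and 0.73, 0.78 and 0.73 at day 2. At this tile the day 0 libraries came within reach of DNMT_WT, and the later days of TET_WT lay below both.

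The next highest at day 0 were the start of Atxn1l, a relative of the ataxin 1 repressor (chr8:109736001-109738000), and a tile outside genes on chromosome 7 (chr7:16770001-16772000). The Atxn1l tile averaged 3.44 ± 0.07 in DNMT_WT (SD, n = 3). In TET_WT it averaged 1.91 ± 0.36 at day 0 (n = 3), 1.85 ± 0.38 at day 1 (n = 2) and 0.95 ± 0.75 at day 2 (n = 3). The chromosome 7 tile averaged 3.61 ± 0.06 in DNMT_WT, and 1.80 ± 0.22, 1.58 ± 0.21 and 1.27 ± 0.24 in TET_WT at days 0, 1 and 2. A tile outside genes on chromosome 1 (chr1:21364001-21366000) averaged 2.09 in DNMT_WT, and 1.79, 0.71 and -0.11 in TET_WT at days 0, 1 and 2.

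Day 1 against day 0 of TET_WT was the comparison that used no library of the rule. It was fitted with limma on those 5 libraries over 1183888 tiles. With Benjamini-Hochberg adjustment, 2 of the 986 tiles passed an adjusted p of 0.05, both lower at day 1, and the background was 0.275% of all tiles called. Of those 3256 calls, 860 were higher and 2396 lower at day 1, a split that turned to 481 higher and 138 lower in a read-weighted fit (voom), and 0 higher and 11 lower with median centring. At an unadjusted p under 0.05 there were 48 tiles, 25 higher and 23 lower at day 1, where the background was 7.96% of all tiles, 4.46% higher and 3.5% lower. In this fit the share among the 986 tiles was thus below that over the genome at that threshold. Their median difference between day 1 and day 0 was 0.05, against 0.19 over all tiles tested. Without day 1 replicate 2 it was -0.041, and without day 1 replicate 3 it was 0.24.

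The tiles called were in Otx1, a homeobox factor of the developing forebrain, and in Xpot. The Otx1 tile (chr11:21994001-21996000) had 0.34 and -0.32 log2 RPKM at day 1, against 1.43, 1.71 and 1.52 at day 0. Its 2 day 1 libraries lay below the 3 of day 0, with a difference of -1.54 (SE 0.35, limma adjusted p = 0.0131). Its DNMT_WT libraries had 2.96, 2.96 and 3.32 at day 2, above TET_WT at 0.21, 0.13 and 0.03. The Xpot tile differed by -1.07 between day 1 and day 0 (SE 0.25, limma adjusted p = 0.0141).

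The calls did not hold in every fit. The voom fit gave adjusted p = 0.272 for the Otx1 tile and 0.199 for the Xpot tile, and no tile of the 986 was called by voom, with median centring or without the variance trend. Without day 0 replicate 1 or replicate 3 neither was called. Over the replicates left out in turn, the adjusted p of the Otx1 tile lay between 0.00897 and 0.165, and that of the Xpot tile between 0.0285 and 0.188. A fit of all 11 libraries, which includes those the rule used, called 20 of the 986 (8 higher, 12 lower), or 2.03%, beside 1.01% of all tiles. At an unadjusted p under 0.05 that fit had 16.9% of the 986 and 11.8% of all tiles, so that the order of the shares depended on the fit. The next smallest p-values belonged to chr1:21364001-21366000 (-1.07, adjusted p = 0.111), its neighbour chr1:21362001-21364000 (-1.16, adjusted p = 0.133) and chr17:85486001-85488000 (1.81, adjusted p = 0.172), all by limma.

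For the line contrast itself, limma with all 11 libraries called 924 of the 986 tiles higher in DNMT_WT, beside a background of 1% of all tiles. Over the genome 11839 tiles were called higher and 26576 lower in DNMT_WT, or 8017 higher and 9167 lower with median centring. Without the variance trend 313 of the 986 were called, beside 0.0644% of all tiles. The rule used this contrast, so nothing follows from that count. Just inside the threshold, 5 tiles had line differences between 2.0003 and 2.0034, and the 5 nearest outside it had between 1.9979 and 1.9996. When the rule was applied without a DNMT_WT library, the tiles it chose had a median of 0.93, 0.93 and 0.91 in the library left out (replicates 1, 2 and 3). Without a TET_WT day 2 library, the tiles had medians of -1.14, -1.12 and -0.97 in the one left out. The DNMT_WT library left out was at or above 0 in 86.3%, 88.0% and 85.6% of those tiles, and the TET_WT library in 14.2%, 16.3% and 17.8%. Each library left out is a replicate of a group that made the choice, so these values are no separate test of the line difference.

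Gene starts made up a larger share of these tiles than of the other sets. The 199 tiles with a start made up 20.2% of the 986, against 3.20% of tiles high in both lines, 2.13% of the mirror set and 2.17% of all tiles in scope. Bodies of protein-coding genes held 39.9% of the 986, and 39.8% of all tiles. Tiles outside annotated genes were 29.9% of the 986 and 49.3% of all. The start tiles were as low in TET_WT at day 0 as the others, with a median of -1.89, beside -1.80 in protein-coding bodies and -2.11 outside genes. These shares were not tested.

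The promoters in these tiles were rich in CpG. Their median was 20 CpG in 300 bases, against 6 in tiles high in both lines, 9 in the mirror set and 7 over all tiles. The ratio of observed to expected CpG had a median of 0.710, against 0.316 in tiles high in both lines and 0.393 over all. It reached 0.6, a common threshold for a CpG island, in 174 of 248 promoters (70.2%), against 18% in tiles high in both lines, 29.0% in the mirror set and 36.7% over all. The median GC content was 61.7% in the 248 promoters and 53.0% over all. A captured fragment with more CpG can carry more 5hmC, and the part of CpG density in the read counts was not tested.

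**Figure D3:**
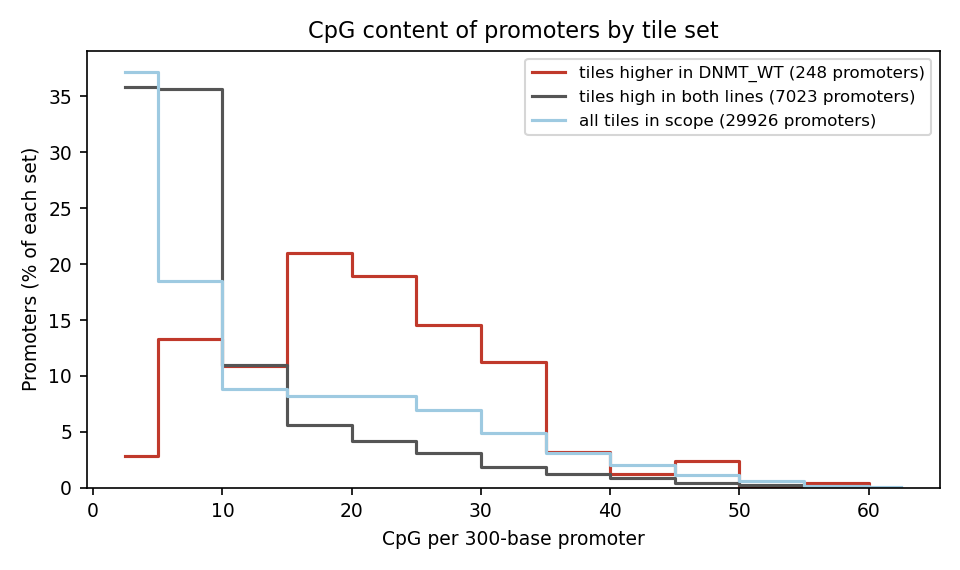
Number of CpG per 300-base RefSeq promoter (horizontal axis, bins of 5) as a percentage of the promoters in each tile set (vertical axis). Promoters of the 986 tiles have a median of 20 CpG, those of tiles high in both lines 6 and those over all tiles 7.

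The make-up of the tiles varied with the size of the line difference. Of the 720 tiles with a difference of 2 to below 3, 22.9% held a start and 23.2% lay outside genes. Of the 191 tiles at 3 to below 5, 14.1% held a start and 45.5% lay outside genes. Of the 75 tiles at 5 or more, 9.33% held a start and 54.7% lay outside genes. The day 0 medians of TET_WT in these bands were -1.44, -2.73 and -4.62 log2 RPKM, and 72, 2 and 0 tiles reached 0 at day 0. The band of the largest differences thus also had the lowest median at day 0.

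Homeobox genes, whose products set position and cell identity in the embryo, held many of the tiles. By symbol, 65 of 184 homeobox genes (35.3%) had at least 1 of the tiles in their span extended by 2 kb, and 19 of the 39 Hox genes (48.7%) did, against 624 of 19728 protein-coding genes (3.16%). Olfactory and vomeronasal receptor genes had 2 of 1417, and genes named Zfp had 14 of 367. The 96 tiles in homeobox genes had a median of 1.44 in DNMT_WT at day 2, and of -1.38, -1.43 and -0.85 in TET_WT at days 0, 1 and 2. Their day 0 mean reached 0 in 15 (15.6%), against 59 (6.63%) of the other 890. A further 1654 tiles in homeobox genes were high in DNMT_WT (each library at least 0) without meeting the rule. Their median line difference was 0.30, and 78.4% reached 0 at day 0. In TET_WT their medians were 0.95, 1.12 and 1.39 at days 0, 1 and 2. The homeobox group was put together after the values were seen and was not tested.

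The longest run of touching tiles was in Hoxd10, which patterns limbs and the posterior axis, and reached into Hoxd11. It spanned 5 tiles (chr2:74684001-74694000). Its mean was 2.03, 1.72 and 1.82 in DNMT_WT. In TET_WT it was -1.04, -0.19 and -1.63 at day 0, -0.62 and -1.10 at day 1, and -0.77, -0.42 and -0.05 at day 2. All 8 TET_WT libraries were below the 3 of DNMT_WT. This is not particular to the run: at day 2 it held in all 986 tiles, and over days 0 and 1 in 967. The HoxD cluster as a whole held 9 of the tiles among 51, and the line difference over its 51 tiles had a median of 1.24.

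**Figure D4:**
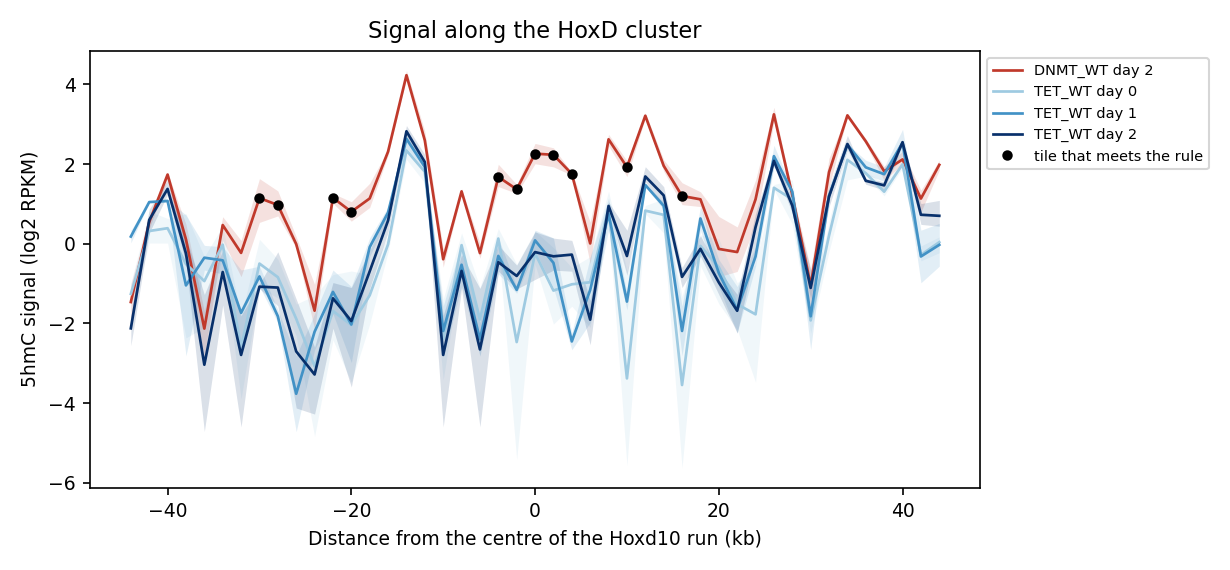
Mean signal (log2 RPKM, vertical axis) by distance in kb from the centre of the Hoxd10 run, with shading from the lowest to the highest library of each group and black points at tiles that meet the rule. DNMT_WT runs above the 3 TET_WT days over the 5 tiles of the run, where its mean is 1.86 and theirs are -0.95, -0.86 and -0.41 at days 0, 1 and 2, and the narrow peaks beside the run appear in both lines.

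The other Hox clusters held fewer of the tiles. HoxA held 4 of the tiles among 56, HoxB 6 among 90 and HoxC 5 among 61. The median line difference over all tiles of a cluster was 0.95 in HoxA, 0.86 in HoxB and 1.05 in HoxC. It was at least 1 in 48.2% of HoxA, 36.7% of HoxB, 57.4% of HoxC and 56.9% of HoxD tiles. DNMT_WT exceeded TET_WT at day 2 in 55 of the 56 HoxA tiles, 83 of the 90 HoxB tiles, 59 of the 61 HoxC tiles and 47 of the 51 HoxD tiles. Over all tiles in scope the median line difference was -0.13, and 5.54% of tiles reached 1. Over tiles with each DNMT_WT library at or above 0, the median was -0.11, 0.18, 0.12 and 0.13 on the chromosomes of HoxA, HoxB, HoxC and HoxD. Most Hox tiles thus missed the threshold of 2 while differing in the same direction.

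Further runs of 3 tiles lay at Otx1 and at Lhx5, a LIM homeobox gene of the forebrain. Others lay at Prdm12, a regulator of pain-sensing neurons, and at Six3, a homeobox gene of the forebrain and eye. Otp, a homeobox gene of the hypothalamus, and Gsc, the organizer homeobox gene goosecoid, had further runs of 3. The Prdm12 run averaged 2.35, 2.56 and 2.43 in DNMT_WT. In TET_WT it averaged -0.84, -0.85 and -0.86 at day 0, -0.55 and -0.78 at day 1, and 0.09, 0.11 and -0.36 at day 2. Day 2 of TET_WT was the highest of its days there, and still below DNMT_WT. The Otx1 run averaged 2.84 in DNMT_WT, and 0.46, -0.15 and -0.35 in TET_WT at days 0, 1 and 2. By these means the order was opposite to that at Prdm12. Its TET_WT libraries had -0.37, 1.03 and 0.72 at day 0, 0.11 and -0.42 at day 1, and -0.33, -0.40 and -0.31 at day 2. Day 0 replicate 1 thus lay among the day 2 libraries. A run at the predicted gene Gm6410 on chromosome 8 had the order of Otx1, with 1.62 in DNMT_WT and -0.27, -0.61 and -1.40 in TET_WT.

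Among single genes, Six3 held 5 of the tiles, with 2.10, 2.04 and 2.04 in DNMT_WT. In TET_WT these averaged -0.66, -0.23 and -1.13 at day 0, -0.47 and -0.59 at day 1, and -0.72, -0.07 and -0.09 at day 2. Cbx8, a Polycomb chromobox gene, held 4 tiles that averaged 1.90 ± 0.03 in DNMT_WT at day 2. In TET_WT they averaged -1.22 ± 0.33 at day 0 (SD, n = 3), -1.12 ± 0.30 at day 1 (n = 2) and -0.85 ± 0.22 at day 2 (n = 3). Pax7, a factor of neural crest and muscle stem cells, held 4 tiles, at 1.24 in DNMT_WT and -1.53, -0.96 and -1.25 in TET_WT at days 0, 1 and 2. Uncx, a homeobox gene of the axial skeleton, held 4 at 1.56 in DNMT_WT and -1.02, -1.55 and -0.74 in TET_WT.

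Lhx5, with 3 tiles, averaged 1.88 in DNMT_WT and -1.94, -1.21 and -1.08 in TET_WT at days 0, 1 and 2. The day 1 libraries of Lhx5 were far apart, at -0.12 in replicate 2 and -2.30 in replicate 3. A830018L16Rik held 3 tiles in a long gene, at 0.97 in DNMT_WT and -2.17, -1.36 and -1.97 in TET_WT. The predicted gene Gm8909 held 3, at 1.07 in DNMT_WT and -3.67, -2.70 and -2.94 in TET_WT. In day 1 replicate 2 all 3 were empty, and their value of -2.81 there was set by the depth of that library. The order of TET_WT days differed between these genes, and the spread between libraries was often as large as the differences between days.

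Of the 10 gene lists, the neural list had tiles in 6 of 19 measured genes (among them Six3, Pax7, Nkx2-2, Zic1 and En2) and the mesoderm list in 6 of 22 (Gsc, Evx1, Foxc2, Wnt3a, Lhx1 and Foxc1). Per 1000 tiles of their genes this was 70.8 in the neural and 39.8 in the mesoderm list, against 1.40 over all protein-coding genes. It was 5.88 in the blood and endothelium list and 6.59 in the naive pluripotency list. Every list but the germline list exceeded the 3.16% of all protein-coding genes that had a tile. The lowest of these shares was 5.56%, in the fibroblast and feeder list. Evx1, a homeobox gene of the primitive streak, averaged 2.59 in DNMT_WT and 0.16, -0.18 and 0.16 in TET_WT at days 0, 1 and 2. Wnt3a, a Wnt ligand of the primitive streak, averaged 1.92 in DNMT_WT and -0.54, -1.45 and -0.29 in TET_WT. Nkx2-2, a homeobox gene of the ventral neural tube, averaged 1.20 in DNMT_WT and -1.94, -1.94 and -1.13 in TET_WT.

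The blood and endothelium list had tiles in 5 of 30 genes: Gata3, Mecom, Lyl1, Hoxb4 and Runx1. Lyl1, a basic helix-loop-helix factor of blood stem cells, had 2.93, 3.11 and 2.83 in DNMT_WT. In TET_WT it had -0.77, -0.36 and -0.28 at day 0, -0.34 and 0.14 at day 1, and 0.65, 0.40 and 0.53 at day 2. TET_WT at day 2 lay above its earlier days at Lyl1, and below DNMT_WT. Mecom, a zinc finger regulator of blood stem cells, averaged 2.86 in DNMT_WT and -1.19, -1.88 and 0.62 in TET_WT at days 0, 1 and 2. Runx1, the master regulator of blood emergence, had 1 tile at 1.10 in DNMT_WT and -0.34, -1.82 and -0.97 in TET_WT. Gata3, a factor of T cells, averaged 1.84 in DNMT_WT and -1.22, -1.06 and -0.89 in TET_WT.

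Over 40 genes summarised in this way, the SD between libraries had a median of 0.17 in DNMT_WT, and of 0.44, 0.42 and 0.28 in TET_WT at days 0, 1 and 2. It reached 1.76 at day 1, where a mean rests on 2 libraries, and the order of TET_WT days at single genes was not tested.

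In the endoderm list, 2 of 16 genes had tiles. Gata6, the driver of primitive endoderm, averaged 1.10 in DNMT_WT and -0.93, -1.14 and -1.05 in TET_WT at days 0, 1 and 2. The imprinted list had 2 of 28, Gnas at 2.85 in DNMT_WT and -0.74, -1.11 and 0.34 in TET_WT, and the growth inhibitor Cdkn1c at 2.21 in DNMT_WT and -1.10, -0.78 and -0.25 in TET_WT. The germline list had 0 of 20, and the list of fibroblast and feeder genes 1 of 18, Prrx1, at 1.45 in DNMT_WT and -2.37, -1.95 and -0.74 in TET_WT.

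The naive pluripotency list had tiles in 2 of 19 genes. The 2 Klf4 tiles averaged 0.90, 0.90 and 0.80 in DNMT_WT. In TET_WT they averaged -2.45, -3.39 and -2.39 at day 0, -2.81 and -2.77 at day 1, and -1.77, -1.38 and -1.40 at day 2. These 2 of the 6 Klf4 tiles were thus low in TET_WT as naive ES cells too. Esrrb, an orphan nuclear receptor of naive cells, had 1 tile at 1.55 in DNMT_WT and -1.61, -0.59 and -0.71 in TET_WT at days 0, 1 and 2. The formative epiblast list had 1 of 16, Grhl2, which opens epithelial enhancers, at 0.75 in DNMT_WT and -1.71, -2.82 and -1.52 in TET_WT. The DNA methylation machinery list had 2 of 21. They were Uhrf2, a relative of Uhrf1 that binds 5hmC, at 1.27 in DNMT_WT and -2.59, -3.11 and -0.76 in TET_WT, and Idh2, a mitochondrial dehydrogenase, at 0.88 in DNMT_WT and -2.66, -2.69 and -1.17 in TET_WT.

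The largest differences were of another kind, with almost no reads in TET_WT on any day. The Tob2 start tile (chr15:81858001-81860000) had 676, 214 and 399 reads in DNMT_WT, against 0, 3 and 4 reads in TET_WT at day 2. At day 0 TET_WT had 13, 3 and 11 reads there, and at day 1 0 and 2. Scaled to library totals, the pooled reads of the lines at day 2 differed 159-fold (exact 95% interval 77.1 to 397, counting error only). The nearest tile outside the set had a line difference of 2.42 on its lower side and 0.31 on its upper side. The Tfap2a start tile (chr13:40732001-40734000) had 288, 139 and 253 reads in DNMT_WT, and 1, 2 and 1 in TET_WT at day 2, a 147-fold difference (57.2 to 541). At day 0 it had 8, 2 and 1 reads, and at day 1 none.

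Others with a few reads in TET_WT were in the body of Hk2, a glycolytic hexokinase (chr6:82772001-82774000), of Catsperg1 (chr7:29212001-29214000) and of Togaram1, a microtubule protein of cilia (chr12:64966001-64968000). The Hk2 tile had 439 pooled reads in DNMT_WT and 2 in TET_WT at day 2, a 190-fold difference with a wide interval (52.2 to 1573). The Catsperg1 tile had 1222 and 14, a 75.5-fold difference (44.8 to 139). The Togaram1 tile had 677 and 6, a 97.6-fold difference (44.6 to 267). At these 3 tiles TET_WT at day 0 averaged -4.18, -3.59 and -2.59 log2 RPKM, also low.

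No reads at all were found in any of the 8 TET_WT libraries in 25 tiles (2.54%). These libraries held 241362468 reads together, and 0 reads allow up to 3. The share over all tiles was counted for the 5 libraries of days 0 and 1 only. There 28 of the 986 (2.84%) had no reads, against 4.82% of all tiles in scope and 0% of tiles high in both lines. Empty tiles were thus no more common among the 986 than over all tiles. Among the 25, the tiles with the most DNMT_WT reads lay in 4930573H18Rik (chr3:97070001-97072000, 390 reads), outside genes on chromosome 7 (chr7:52834001-52836000, 377 reads), and in Me3, a mitochondrial malic enzyme (chr7:89758001-89760000, 358 reads). They were followed by Gtf2ird1, a relative of the transcription factor TFII-I (chr5:134430001-134432000, 356 reads) and Fcrl5, an Fc receptor-like protein of B cells (chr3:87478001-87480000, 304 reads). With TET_WT at day 2 set to 3 reads over the group, DNMT_WT was at least 112-, 109-, 103-, 103- and 87.6-fold higher in this order. Having no reads, these 5 shared the lowest level at day 0 with the other tiles of this kind.

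The 25 tiles fell into 17 stretches without TET_WT reads, 15 of them longer than 1 tile. In Arhgap21, a GTPase-activating protein, 9 tiles in a row (chr2:20924001-20942000) held 292, 161 and 266 reads in DNMT_WT replicates 1, 2 and 3 and 0 in TET_WT. In Fcrl5, 14 tiles in a row (chr3:87458001-87486000, 28 kb) each held at most 10 reads over the 8 TET_WT libraries. Together they had 1245 reads in the 3 DNMT_WT libraries and 20 in the 8 of TET_WT, and 5 of the 6 Fcrl5 tiles of the rule lay there. Levels in DNMT_WT ran from -4.70 to 1.95 within the stretch. Over the other tiles of the gene and its flanks, the median was -0.07 in DNMT_WT and -0.77 in TET_WT at day 2. Input DNA and genotypes were not analysed here, and whether the sequence of these stretches differs between the lines was not tested.

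**Figure D5:**
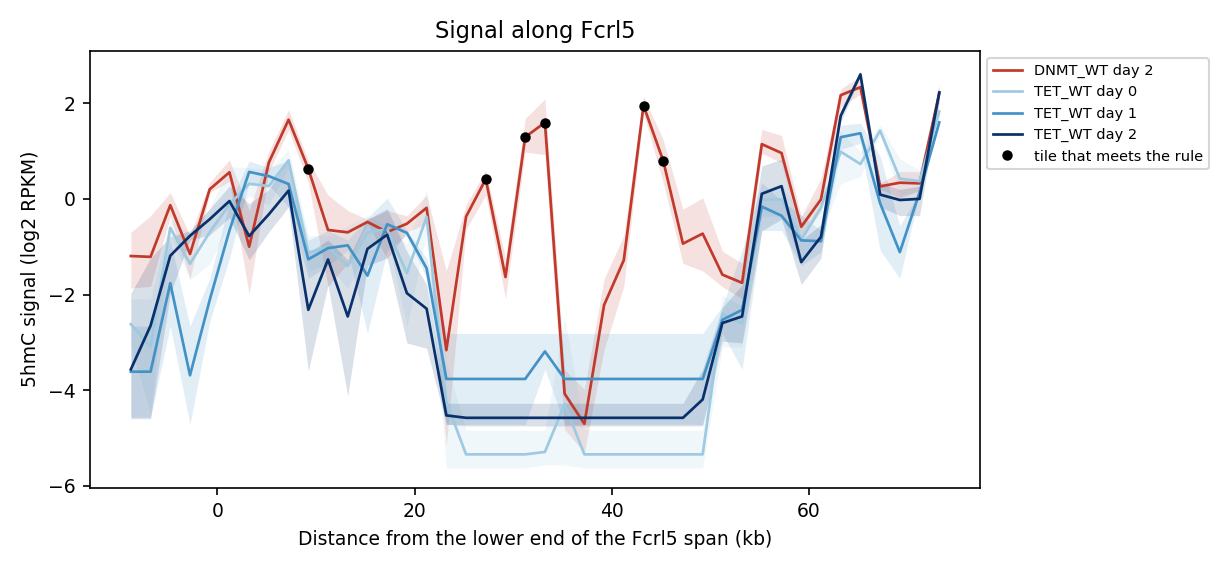
Mean signal (log2 RPKM, vertical axis) by distance in kb from the lower end of the annotated Fcrl5 span, with shading from the lowest to the highest library and black points at tiles that meet the rule. The flat floors of TET_WT over most of the 28 kb are the values given to tiles without reads, which differ by library depth, and the 8 TET_WT libraries held 20 reads there in all, while DNMT_WT varies between -4.70 and 1.95 over the same tiles.

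Most of the tiles stood alone or in pairs rather than in broad blocks. The 986 tiles formed 871 runs, and 218 tiles had a touching partner that also met the rule. The nearest tile outside the set was then taken on each side, passing over touching tiles that met the rule. It had a line difference of at least 1 on either side for 606 tiles (61.5%). On both sides it was below 1 for 380 (38.5%), which include tiles that touch another of the 986. Over all tiles in scope, 5.54% had a line difference of at least 1. This is a share of single tiles, unlike the 61.5%, which counts a tile on either side. The nearest tiles outside the set had a median line difference of 0.77 (quartiles 0.17 and 1.43), against -0.13 over all tiles in scope. Within 1 Mb windows, a median line difference was taken over tiles whose mean signal at day 2 was not low. It was 0.5 or more at 18 of the 986 tiles, and its median at the 986 was 0.05. The share over all windows was not counted. The differences thus often reached past the tile itself, in windows whose median over such tiles differed little between the lines.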

How the data were processed

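Fragments carrying 5hmC were captured from sonicated genomic DNA with a commercial kit and sequenced, per the labels' protocols. Per the submitters' processing notes, the tools included Bowtie2 2.4.1, cutadapt 2.3 and Trim Galore 0.6.5, and the build was GRCm38. The counting tool is not given in the sources used here. The deposited values are log2 RPKM computed by the authors in 2 kb tiles. In every library, tiles of 1 to 100 reads lay within 0.01 of a whole read, and an empty tile was given the equivalent of 0.9 reads. Because each library is scaled to its own total, these values carry no information on total 5hmC.

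The 986 tiles and the gene lists were chosen with earlier results of these data known. Genes were RefSeq spans of GRCm38.p6 extended by 2 kb. Day 1 was compared with day 0 of TET_WT by limma 3.58.1 (R 4.3.3; lmFit, eBayes with a variance trend) on chromosomes 1 to 19 and X, after dropping tiles in the bottom 10% and the top 0.1% by mean of the 11 libraries. A call is a two-sided Benjamini-Hochberg adjusted p under 0.05 over all tiles. The scripts were tested on simulated data. Alternatives were other thresholds, scalings, depths and variance models, and each replicate left out. Fold differences of pooled reads carry exact 95% intervals that cover counting error only.

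Tiles named were the 10 with the largest line difference, the 5 longest runs, the 5 highest and 5 lowest at day 0 (ties by line difference), the 5 on each side of the threshold and the 5 with the smallest p. Genes named were the 12 with most tiles and list genes with a tile; some of these are not reported here. Otp, Gsc, Gramd1a and the Hox clusters were added after their values were seen. Figures used matplotlib 3.10.9.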

Additional observations from a re-analysis of the deposited data

How the results depend on the processing

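The number of tiles depended on the rule. It was 2544 at a line difference of 1.5, 266 at 3, 439 with DNMT_WT libraries at or above 1, 5808 with no floor and 4775 with median centring. Centring raises all values and so loosens the floor, and it also raises every line difference. Library medians over autosomal tiles were lower in DNMT_WT (-1.99, -1.83 and -2.09) than in TET_WT at day 2 (-1.79, -1.80 and -1.75). At equal depth the number of tiles was 1471, of which 675 were among the 986. Leaving out a day 2 replicate gave 1035 to 1205 tiles. The share with a gene start was 12.8% at a difference of 3, and 19.7% to 21.9% without a replicate. Homeobox genes with a tile numbered 109 at a difference of 1.5, 10 at 3, 40 with the floor at 1, 103 with median centring and 63 to 72 without a replicate.

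The day 0 median was -0.17 with median centring, -1.80 at equal depth, -3.10 at a difference of 3 or more, and -1.84 to -1.76 without a replicate. The share reaching 0 at day 0 was 44.6% with median centring (47.9% over all tiles), 0.752% at a difference of 3 or more, and 7.30% to 8.22% without a replicate. The median difference between day 1 and day 0 was 0.25 with empty tiles at 3 reads, 0.48 at a line difference of 3 or more, and -0.041 to 0.238 without a replicate. That range changes sign, and -0.041 is the value without day 1 replicate 2, the shallowest library. The 25 tiles without TET_WT reads all had a line difference of 3 or more. In the reported values each of them had a day 1 minus day 0 of 1.58, set by the values of empty tiles and so by depth alone. The part of such values in the 0.48 was not tested.

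Tiles of the 986 called between day 1 and day 0 numbered 20 with all 11 libraries, 17 with all 11 libraries and a replicate block, and 0 with no variance trend, with median centring and with voom, against 2 in the fit reported. The background was 1.01% of all tiles with all 11 libraries, 0.856% with the block, 0.0523% with voom, 0.000929% with median centring and 0% without a trend. Without a replicate they numbered 0 to 4, and without day 0 replicate 2 the number was 1. Where day 1 was left with 1 library, it was assumed to vary like day 0. At an unadjusted p under 0.05, voom had 46 (4.67%, beside 5.8% of all tiles), median centring 49 (4.97%, beside 5.23%) and the fit without a trend 67 (6.80%, beside 5.87%). Correlations of same-numbered libraries lay between -0.098 and 0.104, so the numbers were not taken to pair samples. Over all tiles, the line difference had 38415 calls, 38226 with a replicate block, 17184 with median centring and 3288 without a variance trend. The median line difference of all tiles tested was 0.07 with median centring and -0.12 without it. The cause of these changes was not tested unless named. Counting error limits single tiles, most of all in day 1 replicate 2 with 7342015 reads.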

Other observations

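The tiles were spread unevenly over the chromosomes. Chromosome 7 held 132, or 18.2 per 10000 tiles, and chromosome 16 held 10, or 2.04 per 10000. Of the windows of 1 Mb, 562 held a tile and 24 held 5 or more. A window on chromosome 11 with the Polycomb gene Cbx8 and a window on chromosome 2 with HoxD and Evx2 held 11 each. A window with HoxB genes and Nfe2l1 held 10, as did the window with Fcrl5.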
